A study of Caenorhabditis elegans with 15 samples.

Results

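Pumilio family (PUF) proteins are RNA-binding proteins that recognise short UGU-containing elements in the 3′ untranslated regions of their target mRNAs and mostly repress them, in part by bringing in the deadenylases that shorten poly(A) tails. In *C. elegans* the family is known above all for the germline. FBF-1 and FBF-2 keep germline stem cells from entering meiosis, PUF-8 acts in germ cell proliferation and in the meiotic programme, and PUF-3, PUF-11, PUF-5, PUF-6 and PUF-7 act in oocytes and are supplied to the early embryo. PUF-9 acts in somatic tissue, and PUF-12 belongs to a branch related to the nucleolar protein Puf6 of yeast.

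The 10 family members followed here, of 46911 genes in the count table, were listed by name. The family was chosen by the levels of *puf-3* and *puf-11*, which were higher in all 3 *eff-1* mutants than in wild type (WT). The values of those 2 genes in these comparisons are therefore given as a description, with no test. The members were placed in an oogenic subgroup (*puf-3*, *puf-11*, *puf-5*, *puf-6* and *puf-7*), a germline stem cell subgroup (*fbf-1*, *fbf-2* and *puf-8*) and a somatic or general subgroup (*puf-9* and *puf-12*). All 10 passed the filter on low counts in every comparison.

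RNA came from whole L1 larvae that hatched and arrested without food in M9 buffer, in 5 groups of 3 biological replicates, each replicate started from its own plate. EFF-1 is the fusogen that joins epidermal cells into syncytia. P37Stop was made with CRISPR, by insertion of stop codons into *eff-1* in animals carrying *kuIs46* (AJM-1::GFP, a marker of epidermal junctions) and *bqSi640* (histone *his-58* fused to mCherry between FRT sites, then to GFP, under the epidermal promoter *dpy-7p*), and was grown in a later experiment with WT batch 2. S441L (*oj55*) and P183L (*hy21*) came from random mutagenesis, so that their strains may carry other mutations, are listed with the array *jcIs1*, which holds *rol-6*(*su1006*), *unc-29*(+) and *ajm-1*::GFP, and were grown in parallel with WT batch 1 (N2). Neither WT group is described as carrying a transgene. The WT groups belong to different experiments, so that experiment and group cannot be told apart, and S441L and P183L share their WT libraries.

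Total counts ranged from 35858225 to 47820216 per library. Levels of *eff-1* were 16.7 to 19.9 CPM (counts scaled to library size, normalised by the TMM method over all libraries) in P37Stop against 23.9 to 28.5 CPM in WT batch 2. They were 30.8 to 34.3 CPM in S441L and 30.5 to 34.5 CPM in P183L, against 26.2 to 30.5 CPM in WT batch 1, and a point mutation need not change the level. The *rol-6* gene on *jcIs1* was read at 412 to 446 CPM in S441L and at 1.41 to 2.06 CPM in P183L, against 0.405 to 0.603 CPM in WT batch 1, so that the P183L libraries did not show the *rol-6* level that the S441L libraries did. P183L stood apart from every other group, with 80.4% of the genes tested called against WT batch 1. In whole animals, fewer cells of a type and less RNA per cell cannot be told apart.

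The members lie on chromosomes II, IV and X of the WBcel235 assembly (ce11). Both *puf-3* (WBGene00004239, chromosome IV, 13510307 to 13512162, minus strand) and *puf-11* (WBGene00022257, chromosome IV, 6421585 to 6423497, plus strand) have 3 exons, with 1506 and 1515 coding bases, and their proteins are near-identical. Of the late-oogenesis genes, *puf-5* (WBGene00004241) spans 8575541 to 8577787 on the plus strand of chromosome II. The near-identical *puf-6* (WBGene00004242, chromosome II, 13039792 to 13043445, minus strand) and *puf-7* (WBGene00004243, chromosome IV, 5486713 to 5490322, plus strand) each have 1455 coding bases. The pair *fbf-1* (WBGene00001401, 6078263 to 6080843) and *fbf-2* (WBGene00001402, 6088863 to 6091480) lies on the minus strand of chromosome II with 8020 bases between the genes. The gene *puf-8* (WBGene00004244) spans 7296110 to 7298247 on the minus strand and *puf-12* (WBGene00014165) 10100310 to 10103061 on the plus strand of the same chromosome. Only *puf-9* (WBGene00004245) is X-linked, at 5841592 to 5845987 on the plus strand. Exons of *puf-12* share 91 bases with *ZK945.4* on the opposite strand and those of *fbf-1* share 15 bases with *H12I13.6*, and whether the counting used strand was not given in the sources used here.

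Per exon length, the order of the members separated the somatic genes from all others. In TPM (counts per exon length, scaled to the same sum in every library), *puf-12* was highest in every group, at 193 ± 10.8 TPM in P37Stop, 175 ± 4.45 TPM in S441L, 190 ± 2.72 TPM in P183L, 191 ± 15.4 TPM in WT batch 2 and 287 ± 10.8 TPM in WT batch 1 (SD, n = 3). The second was *puf-9*, at 51.1 ± 5.32, 53.3 ± 0.710 and 79.4 ± 1.84 TPM in these mutants and 39.2 ± 3.25 and 35.9 ± 1.78 TPM in these WT groups. Neither range overlapped that of the next gene in any group. TPM serves here to rank genes within a group and carries no TMM factor. Between groups it can part from CPM, as *puf-12* was higher in P183L than in S441L in TPM but lower in CPM (means of 243 against 326 CPM).

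Below them the order of levels differed among groups. The oogenic *puf-7* followed them in P183L at 29.5 ± 1.53 TPM and in P37Stop at 4.86 ± 0.700 TPM (SD, n = 3), where its range overlapped that of *puf-8*. In S441L *fbf-2* (5.75 ± 0.628 TPM) and *puf-8* (5.73 ± 0.122 TPM) followed them and overlapped. In WT batch 2 the 8 low members formed an unbroken chain of overlapping neighbours, from *puf-8* at 1.51 ± 0.142 TPM down to *fbf-1* at 0.346 ± 0.122 TPM. In WT batch 1 *fbf-2* led them at 2.82 ± 0.387 TPM, clear of *puf-8* at 1.69 ± 0.0229 TPM. The lowest member was *fbf-1* in all groups but P183L, where *fbf-2* was lowest at 1.78 ± 0.259 TPM.

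**Figure D1:**
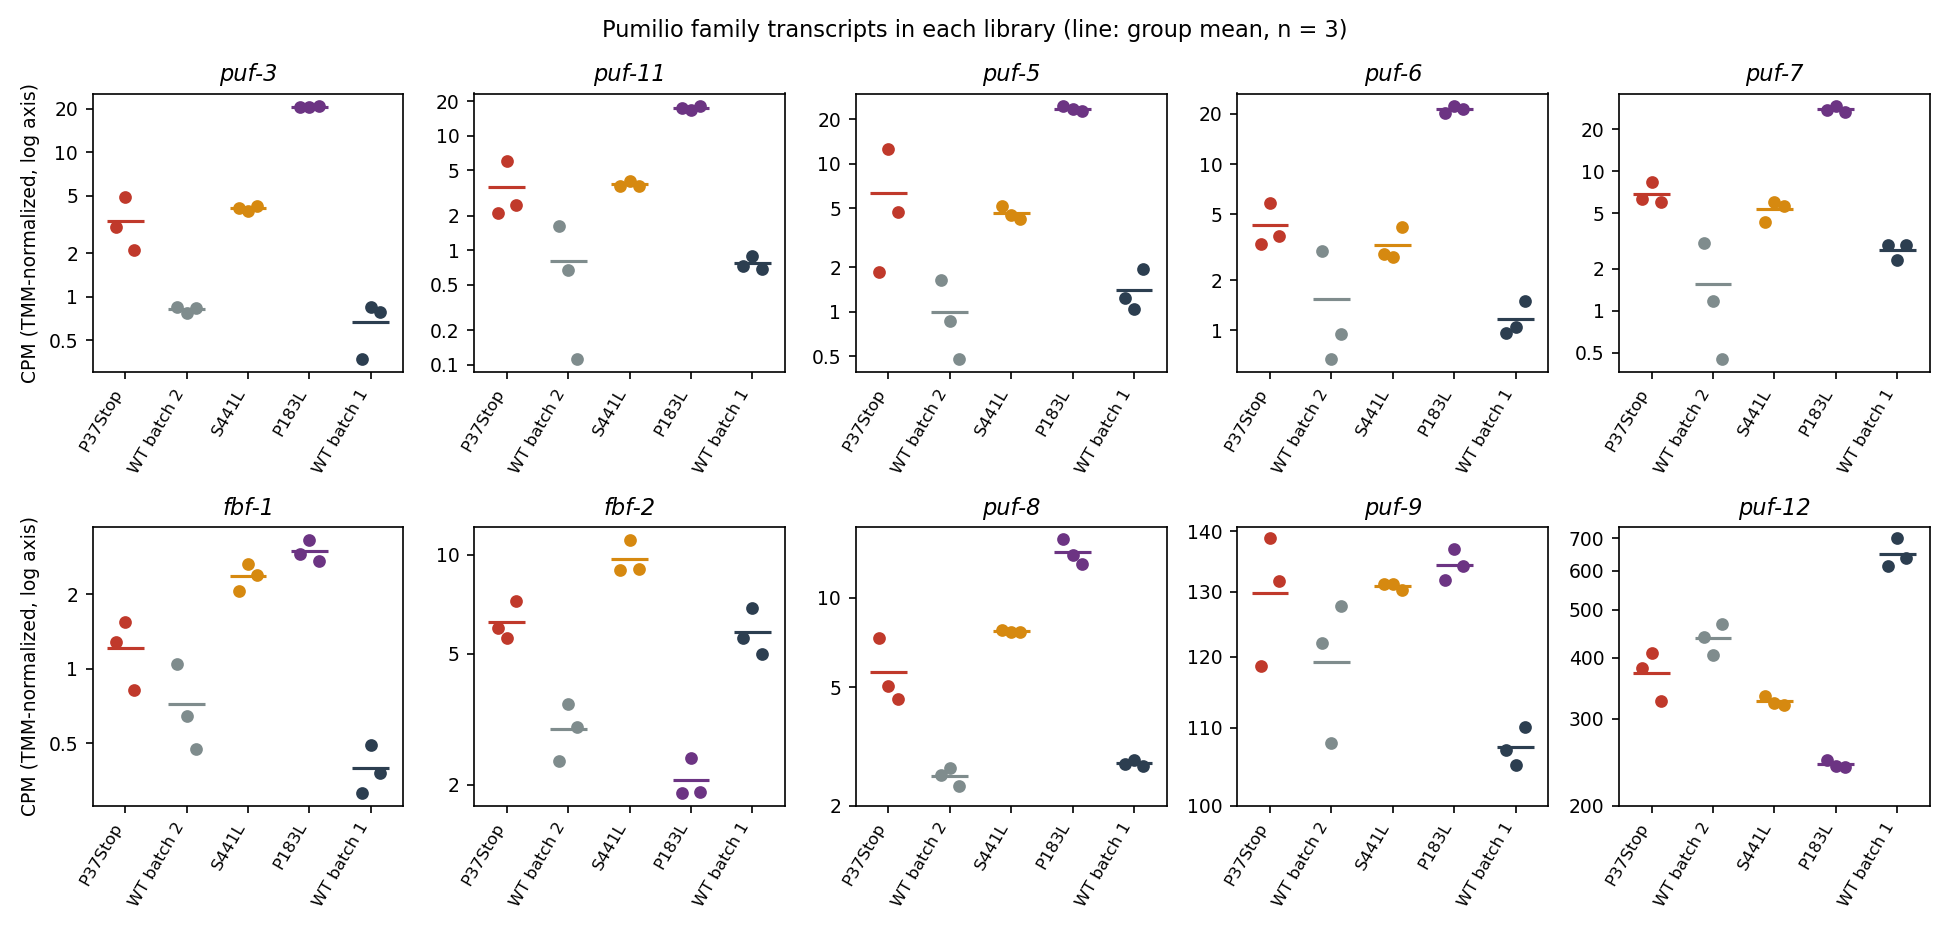
Level of each of the 10 Pumilio family genes in CPM (log axis, with a range of its own in each panel) in the 15 libraries, with the mean of each group as a line (n = 3). The 5 oogenic genes of the upper row are highest in P183L, *fbf-2* is lowest there, and *puf-12* is highest in WT batch 1.

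The oogenic members were higher in each mutant. The genes used to pick the family, *puf-3* and *puf-11*, whose proteins repress maternal mRNAs in oocytes and also act in germline stem cells, are described first. Levels of *puf-3* were 3.02, 4.90 and 2.11 CPM in P37Stop, against 0.847, 0.766 and 0.838 CPM in WT batch 2. They were 4.10, 3.95 and 4.25 CPM in S441L and 20.5, 20.5 and 20.9 CPM in P183L, against 0.367, 0.852 and 0.785 CPM in WT batch 1. No mutant library overlapped a WT library, and the log2 difference came to 2.06 ± 0.40 in P37Stop, to 2.67 ± 0.24 in S441L and to 4.91 ± 0.17 in P183L (SE).

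For *puf-11* the P37Stop libraries held 2.13, 6.05 and 2.51 CPM, against 1.64, 0.670 and 0.112 CPM in WT batch 2, where the lowest value rests on 4 counts. S441L held 3.66, 3.99 and 3.67 CPM and P183L 17.4, 16.7 and 18.1 CPM, against 0.735, 0.884 and 0.684 CPM in WT batch 1. These are log2 differences of 2.16 ± 0.70, 2.35 ± 0.18 and 4.46 ± 0.12 (SE) for P37Stop, S441L and P183L. The groups did not overlap, but *puf-11* varied more among the WT batch 2 libraries than *puf-3* did. In P37Stop both genes were highest in replicate 2.

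The other oogenic members repress mRNAs such as *glp-1* in late oocytes and are needed for oocyte formation. Levels of *puf-5* were 1.85, 12.5 and 4.71 CPM in P37Stop against 1.64, 0.862 and 0.475 CPM in WT batch 2, so that the lowest P37Stop library lay just above the highest WT library. *puf-6* was read at 3.32, 5.86 and 3.67 CPM in P37Stop against 2.99, 0.670 and 0.9503 CPM in WT batch 2. Its near-identical partner *puf-7* was read at 6.29, 8.30 and 6.05 CPM in P37Stop against 3.06, 1.17 and 0.447 CPM in WT batch 2. All 3 passed the test, with log2 fold changes of 2.70 ± 0.64 for *puf-5*, 1.51 ± 0.50 for *puf-6* and 2.17 ± 0.51 for *puf-7* (SE; adjusted p = 0.0100, 0.0453 and 0.00956, edgeR quasi-likelihood test with Benjamini-Hochberg adjustment over all genes tested).

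In S441L *puf-5* was read at 5.17, 4.53 and 4.21 CPM, *puf-6* at 2.87, 2.75 and 4.16 CPM and *puf-7* at 4.30, 5.99 and 5.67 CPM. In P183L the values were 24.6, 23.6 and 22.9 CPM for *puf-5*, 20.4, 22.3 and 21.4 CPM for *puf-6* and 27.2, 29.3 and 26.6 CPM for *puf-7*. WT batch 1 held 1.23, 1.05 and 1.95 CPM of *puf-5*, 0.971, 1.05 and 1.49 CPM of *puf-6* and 2.94, 2.29 and 2.94 CPM of *puf-7*. Each of the 3 genes rose in both mutants with no overlap between groups. The log2 fold changes in S441L were 1.74 ± 0.21, 1.51 ± 0.23 and 1.00 ± 0.17 (SE) for *puf-5*, *puf-6* and *puf-7*, with adjusted p from 9.34e-06 to 0.000174 in the edgeR test. Those in P183L were 3.99 ± 0.15, 4.12 ± 0.13 and 3.28 ± 0.10 (SE), with adjusted p from 4.91e-12 to 4.26e-11 in the same test. Set against WT batch 2 instead, *puf-6* in S441L had a log2 fold change of 1.06 and no call (adjusted p = 0.0796, edgeR test).

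P37Stop replicate 2 was the highest of its group, and WT batch 2 replicate 1 the highest of its own, for 5 of 5 oogenic members. Of a list of 30 oocyte and maternal genes, 20 were highest in that P37Stop library and 23 in that WT library. The same count over all genes was not made, so whether this is particular to the list is not shown. The maternal RNA-binding protein gene *pos-1*, for example, was at 24.6, 61.5 and 33.8 CPM in P37Stop against 18.6, 5.55 and 3.35 CPM in WT batch 2. Their part in the result was not tested. Without P37Stop replicate 2, *puf-5* and *puf-6* no longer passed the test (log2 fold changes of 1.74 and 1.22, adjusted p = 0.0549 and 0.155 in the edgeR test), and *puf-11* fell to a log2 difference of 1.54. Without both libraries, an alternative chosen after seeing the data, the log2 fold changes were 2.29 for *puf-5*, 2.12 for *puf-6* and 2.92 for *puf-7*, all past the test. Without WT batch 2 replicate 2, *puf-6* and *puf-7* lost the call, at log2 fold changes of 1.14 and 1.99 (adjusted p = 0.140 and 0.0507 in the edgeR test). The *puf-6* call was lost in 5 of 6 fits that left out a library, all but that without WT batch 2 replicate 1 (adjusted p from 0.0602 to 0.156), and with only genes above a mean of 1 TPM tested (0.0517, edgeR test).

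Among the germline stem cell members, *puf-8* was higher in every mutant. It was read at 7.32, 5.05 and 4.57 CPM in P37Stop against 2.54, 2.68 and 2.32 CPM in WT batch 2 (log2 fold change 1.19 ± 0.27 SE, adjusted p = 0.00729, edgeR quasi-likelihood test). S441L held 7.81, 7.66 and 7.69 CPM and P183L 15.7, 13.9 and 13.03 CPM, against 2.76, 2.85 and 2.71 CPM in WT batch 1. The groups were far apart relative to their spread, with log2 fold changes of 1.52 ± 0.12 in S441L and 2.31 ± 0.11 in P183L (SE; adjusted p = 1.91e-07 and 4.53e-10, edgeR test). The WT groups differed in *puf-8* by a log2 fold change of only -0.04 ± 0.21 (SE, WT batch 2 over WT batch 1).

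The pair *fbf-1* and *fbf-2*, whose proteins repress regulators of meiotic entry and of the switch from sperm to oocytes, did not move together. In P37Stop *fbf-1* was read at 1.29, 1.55 and 0.819 CPM against 1.05, 0.646 and 0.475 CPM in WT batch 2, and these overlapped (log2 fold change of 0.78 ± 0.52 SE, adjusted p = 0.304, edgeR test). Set against WT batch 1 instead, P37Stop had one of 1.65 and was called (adjusted p = 0.0101, edgeR test). In S441L it was read at 2.06, 2.67 and 2.41 CPM and in P183L at 2.92, 3.33 and 2.74 CPM, against 0.315, 0.491 and 0.380 CPM in WT batch 1, where each library held 12 to 15 counts. It rose in both, by log2 fold changes of 2.64 ± 0.24 and 2.88 ± 0.23 (SE; adjusted p = 6.71e-07 and 1.08e-07, edgeR test).

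*fbf-2* rose in P37Stop and S441L and fell in P183L. The libraries held 5.99, 5.58 and 7.25 CPM in P37Stop against 2.37, 3.52 and 2.99 CPM in WT batch 2 (log2 fold change 1.11 ± 0.25 SE, adjusted p = 0.00741, edgeR test). S441L held 9.02, 11.1 and 9.04 CPM against 5.59, 6.88 and 4.99 CPM in WT batch 1 (log2 fold change of 0.79 ± 0.14 SE, adjusted p = 0.000231, edgeR test). P183L held 1.89, 2.40 and 1.90 CPM, below every other library but WT batch 2 replicate 1, with a log2 fold change of -1.54 ± 0.17 against WT batch 1 (SE; adjusted p = 2.31e-06, edgeR test). The WT groups themselves differed, WT batch 2 being lower than WT batch 1 by a log2 fold change of -0.87 ± 0.21 (SE; adjusted p = 0.00500, edgeR test). Set against WT batch 1 instead, P37Stop had a log2 fold change of 0.14 and no call for *fbf-2* (adjusted p = 0.576). Set against WT batch 2, P183L had one of -0.53 and no call (adjusted p = 0.0635).

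The split of counts within this pair differed among the groups. Reads shared by both genes can be divided between them by the counting, and the *fbf-1* and *fbf-2* counts summed to a whole number in 15 of 15 libraries (within 0.002). The share of *fbf-1* was 10.3 to 21.8% in P37Stop against 13.7 to 30.5% in WT batch 2. It was 18.7 to 21.1% in S441L and 58.3 to 60.6% in P183L, against 5.50 to 7.02% in WT batch 1. The P37Stop and WT batch 2 shares overlapped, and those of S441L, P183L and WT batch 1 were separate from one another. With both genes summed, P37Stop (log2 fold change of 1.05 ± 0.21) and S441L (1.01 ± 0.13) kept a rise, while P183L came to -0.34 ± 0.15 (SE; adjusted p = 0.0435, edgeR test), short of the log2 limit of 0.5 for a call.

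**Figure D2:**
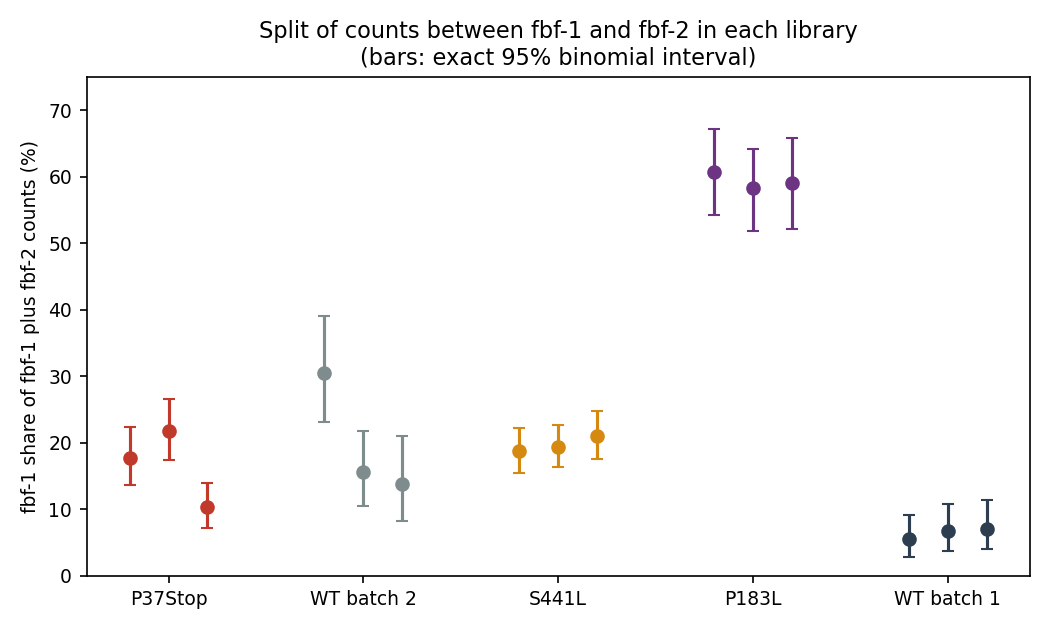
Share of the counts of *fbf-1* and *fbf-2* together that were given to *fbf-1*, in percent, for each of the 15 libraries with its exact (Clopper-Pearson) 95% interval, which covers counting error only. The P183L libraries lie between 58.3 and 60.6% and those of WT batch 1 between 5.50 and 7.02%.

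Counts of *puf-3* and *puf-11* were whole in 15 of 15 libraries. The *puf-3* share of the *puf-3* and *puf-11* counts was 44.7 to 58.6% in P37Stop against 34.0 to 88.2% in WT batch 2. It was 49.7 to 53.7% in S441L and 53.5 to 55.1% in P183L, against 33.3 to 53.4% in WT batch 1. The *puf-6* share of the *puf-6* and *puf-7* counts was 34.6 to 41.4% in P37Stop against 36.1 to 67.4% in WT batch 2, and 31.6 to 42.3% in S441L and 42.8 to 44.5% in P183L against 25.02 to 33.6% in WT batch 1. These counts did not sum to whole numbers in any library, and the pseudogene *puf-10* on chromosome I also took counts in every library. It was read at 8.07, 11.2 and 11.7 CPM in P37Stop, against 9.66, 10.7 and 12.1 CPM in WT batch 2, which overlapped. In S441L *puf-10* was at 9.22 to 11.1 CPM and in P183L at 6.13 to 7.34 CPM, against 4.83 to 6.91 CPM in WT batch 1. It was called higher in S441L (log2 fold change of 0.82 ± 0.14) and not called in P183L (0.13 ± 0.14 SE). It was also called higher in WT batch 2 than in WT batch 1 (0.96 ± 0.17) and lower in P183L than in S441L (-0.61 ± 0.10 SE). Summing *puf-6*, *puf-7* and *puf-10*, an alternative chosen after seeing the data, lowered the log2 fold changes to 0.65 ± 0.15 in P37Stop, 0.97 ± 0.09 in S441L and 2.45 ± 0.08 in P183L (SE), each still called. How many reads the 3 loci exchange was not tested.

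Neither of the somatic or general members was called higher in any mutant with TMM scaling. *puf-9*, which represses the heterochronic gene *hbl-1* in the epidermis and nervous system, was at 119, 139 and 132 CPM in P37Stop against 122, 108 and 128 CPM in WT batch 2, which overlapped. It was at 130 to 131 CPM in S441L and 132 to 137 CPM in P183L, against 105 to 110 CPM in WT batch 1. These changes are small, with log2 fold changes of 0.33 ± 0.04 in S441L and 0.27 ± 0.04 in P183L (SE; adjusted p = 1.14e-05 and 2.35e-05, edgeR test), under the limit for a call. With total counts in place of TMM, under which all genes tested had a median of 0.214 in S441L and 0.525 in P183L (0.03 and 0.02 with TMM), they were 0.52 and 0.77 and called.

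*puf-12*, the nucleolar branch, was lower in S441L and P183L. The libraries held 334, 323 and 320 CPM in S441L and 248, 240.1 and 240 CPM in P183L, against 613, 699 and 637 CPM in WT batch 1. The groups were well apart, with log2 fold changes of -0.95 ± 0.05 in S441L and -1.47 ± 0.05 in P183L (SE; adjusted p = 1.61e-09 and 1.14e-11, edgeR test). P37Stop held 381, 408 and 327 CPM against 440.99, 405 and 468 CPM in WT batch 2, which overlapped (log2 fold change of -0.21 ± 0.11 SE, adjusted p = 0.173, edgeR test). WT batch 2 was itself lower than WT batch 1 by a log2 fold change of -0.47 ± 0.08 (SE; adjusted p = 0.000285, edgeR test), just short of the limit for a call. Against WT batch 2, S441L had a log2 fold change of -0.45 and no call, and against WT batch 1, P37Stop had one of -0.78 and was called.

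**Figure D3:**
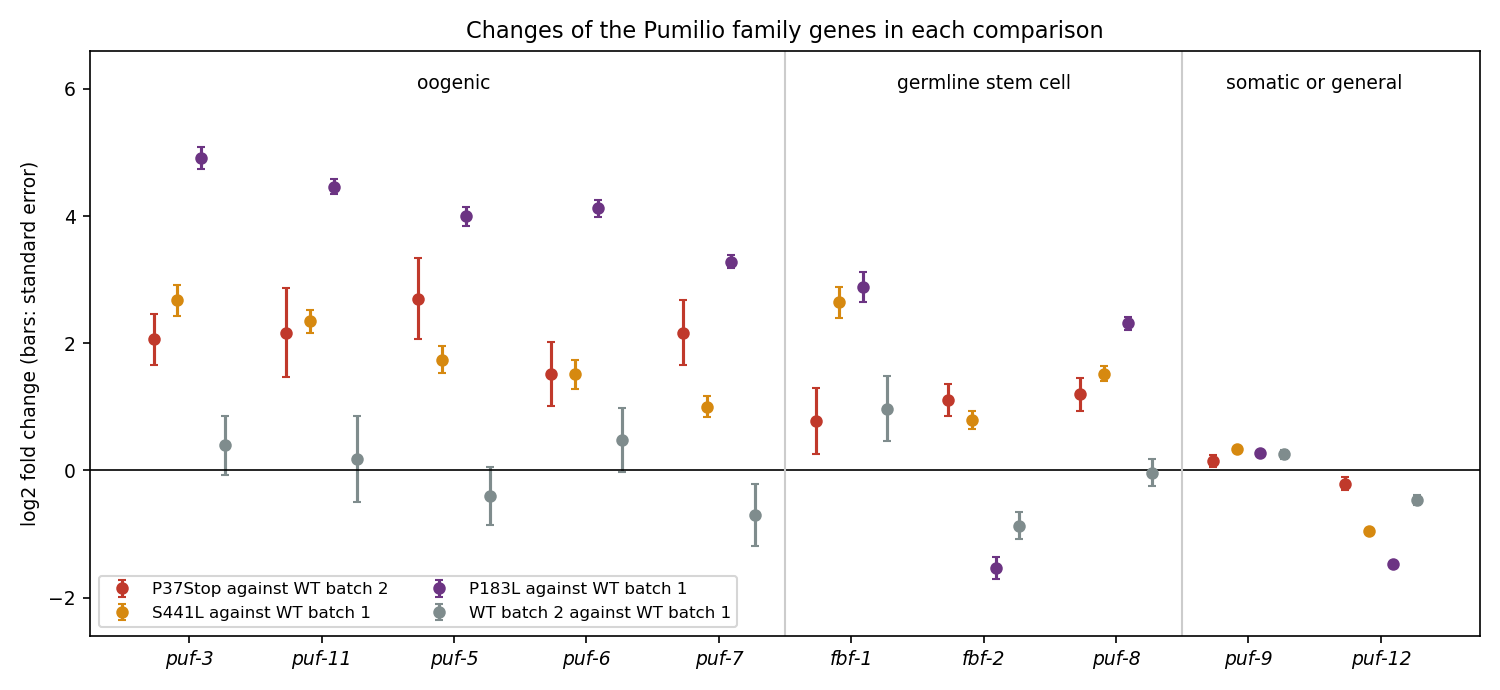
Log2 fold change of each member in the 3 mutants against their own WT group, and in WT batch 2 against WT batch 1 (bars, standard error). The oogenic members lie between 1.00 and 4.91 in the mutants, *fbf-2* is at -1.54 in P183L, and *puf-12* reaches -1.47.

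Counted together, 7 members were higher and 0 lower in P37Stop, where 18.6% of 15780 genes were called (12.7% higher and 5.90% lower), and 7 did not overlap between groups, beside 43.9% of genes. In S441L 8 were higher and 1 lower, where 40% of 15685 genes were called (24.2% higher and 15.8% lower), and 10 of 10 did not overlap, beside 70.7%. In P183L 7 were higher and 2 lower, beside 80.4% of 15884 genes (40.2% higher and 40.2% lower), and 10 of 10 did not overlap, beside 91.3%, so that being called there says little about a gene. These counts include *puf-3* and *puf-11*, whose direction the choice of the family fixed. The median log2 fold change of the 10 members was 1.35 in P37Stop, 1.52 in S441L and 3.08 in P183L, beside 0.02, 0.03 and 0.02 over all genes tested. Between WT batch 2 and WT batch 1 only *fbf-2* was called, lower, where 32.9% of 15408 genes were called (18.6% higher and 14.3% lower). In that comparison 3 members did not overlap, beside 62.3% of genes, and the oogenic members had log2 fold changes from -0.70 for *puf-7* to 0.48 for *puf-6*.

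Between S441L and P183L, which came from 1 experiment, the members differed too. Of the oogenic members, *puf-5*, *puf-6* and *puf-7* were higher in P183L than in S441L by log2 fold changes of 2.34 ± 0.08, 2.70 ± 0.12 and 2.37 ± 0.09 (SE; adjusted p at most 4.42e-12, edgeR quasi-likelihood test). Those of *puf-3* and *puf-11* were 2.32 ± 0.07 and 2.19 ± 0.08 (SE), given with no p because their levels in these mutants chose the family. *puf-8* was higher by 0.87 ± 0.08 and *fbf-2* lower, at -2.25 ± 0.14 (SE; adjusted p = 9.54e-08 and 3.05e-10, edgeR test). *fbf-1* had a log2 fold change of 0.32 ± 0.16 and *puf-9* of 0.02 ± 0.03 (SE; adjusted p = 0.0700 and 0.443, edgeR test), and *puf-12* one of -0.44 ± 0.03, under the limit for a call. In this comparison 78.5% of 16127 genes were called, with 38.1% higher and 40.4% lower, and the 10 members and 90.9% of genes did not overlap between these groups.

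P37Stop was set against each of the other alleles by the difference of their effects, each taken from its own WT group. The S441L effect differed from that of P37Stop for 2 of 10 members, *fbf-1* (higher in S441L) and *puf-12* (lower in S441L), where 40.5% of 17180 genes passed in the edgeR quasi-likelihood test. The P183L effect differed for 8 of 10, where 70.4% of genes passed. These 8 include *puf-3* and *puf-11*, whose effects chose the family and are no evidence here. The exceptions were *puf-5*, with a difference of 1.39 ± 0.73 on the log2 scale, and *puf-9*, with one of 0.20 ± 0.09 (SE). The *puf-9* difference passed with DESeq2 and, in the edgeR test, with total counts and without the filter on low counts (adjusted p = 0.00684, 0.000773 and 0.0171).

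The oogenic and germline stem cell subgroups were compared as TPM sums within each library. These sums carry no TMM factor, which was 1.20 in P183L and 0.85 to 0.90 in WT batch 1. The size of a step between groups in TPM is therefore not that in CPM. In P183L, for example, *puf-9* was at 79.4 TPM against 35.9 TPM in WT batch 1, while its log2 fold change with TMM was 0.27. The oogenic sum was 11.5, 25.1 and 14.3 TPM in P37Stop against 5.64, 2.55 and 1.70 TPM in WT batch 2. It was 14.7 to 16.3 TPM in S441L and 116 to 119 TPM in P183L, against 3.55 to 4.70 TPM in WT batch 1. The germline stem cell sum was 7.41 to 9.14 TPM in P37Stop against 2.98 to 3.75 TPM in WT batch 2, and 12.4 to 13.6 TPM in S441L and 18.1 to 21.0 TPM in P183L, against 4.32 to 5.14 TPM in WT batch 1. Without *puf-3* and *puf-11*, whose direction was fixed by the choice of the family, the oogenic sum was 7.70 to 17.2 TPM in P37Stop against 1.09 to 4.16 TPM in WT batch 2, and 8.60 to 10.1 TPM in S441L and 72.6 to 77.2 TPM in P183L against 2.47 to 3.75 TPM in WT batch 1. The sum of these 3 oogenic genes and the germline stem cell sum were each higher in every mutant library than in any library of its WT group. Of single genes in CPM, 43.9%, 70.7% and 91.3% did not overlap in P37Stop, S441L and P183L. In P183L the germline stem cell sum came mostly from *puf-8* (15.3 ± 1.41 TPM, SD), while *fbf-2* was lower there than in WT batch 1 (1.78 against 2.82 TPM).

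The balance between the subgroups, which was not tested, set P183L apart from every other group, while P37Stop and S441L overlapped. The log2 ratio of the oogenic to the germline stem cell sum was 0.95 ± 0.74 in P37Stop and -0.17 ± 0.96 in WT batch 2, groups that overlapped (SD, n = 3). It was 0.26 ± 0.10 in S441L and 2.58 ± 0.11 in P183L, against -0.24 ± 0.33 in WT batch 1. S441L and WT batch 1 did not overlap, but their difference of 0.49 came to 0.14 without *puf-3* and *puf-11*. That of P183L from WT batch 1 was 2.81, and 2.54 without these genes.

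**Figure D4:**
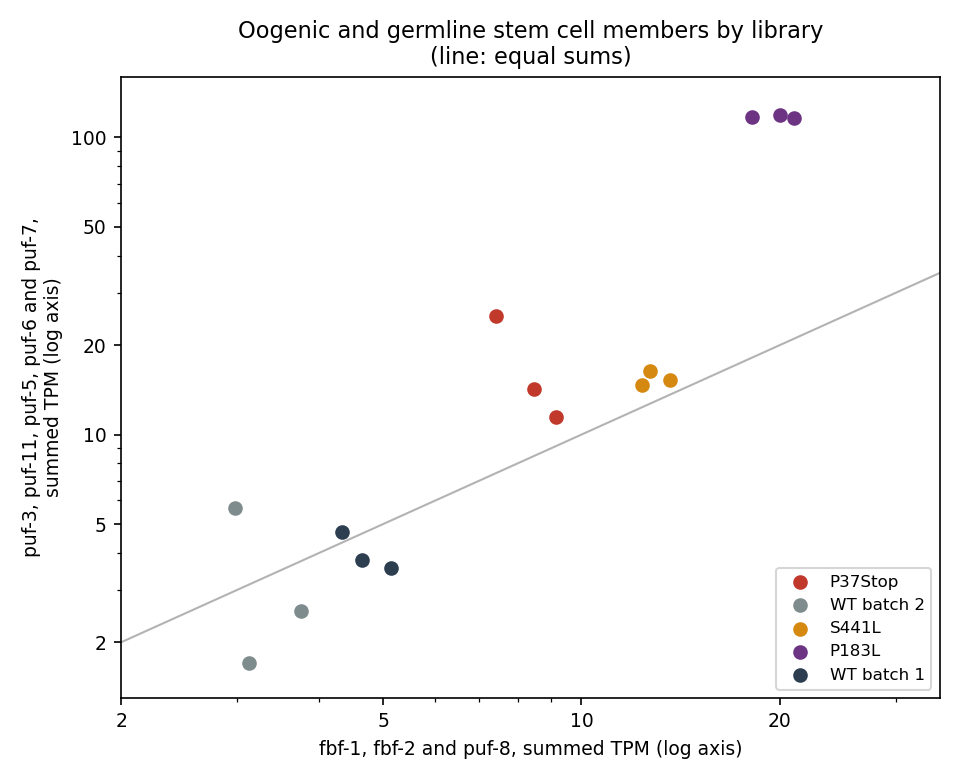
Summed TPM of the oogenic members (vertical, log axis) against summed TPM of the germline stem cell members (horizontal, log axis) in each of the 15 libraries, with the line of equal sums. The P183L libraries, at 116 to 119 TPM on the vertical axis, lie farthest above the line.

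Genes that act with PUF proteins were called higher about as often as all genes in P37Stop and S441L. A list of 28 partners and deadenylation factors had 4 genes higher and 0 lower in P37Stop, 7 higher and 1 lower in S441L, and 20 higher and 1 lower in P183L, with median log2 fold changes of 0.08, 0.00 and 0.87. Over all genes tested, 12.7%, 24.2% and 40.2% were called higher in these comparisons. Between the WT groups 1 of 27 of them was called, *sygl-1*. *nos-2*, a Nanos protein that works with PUF proteins in primordial germ cells, had log2 fold changes of 3.06 in P37Stop, 1.498 in S441L and 4.33 in P183L. It was read at 5.17, 13.4 and 7.44 CPM in P37Stop against 1.87, 0.958 and 0.335 CPM in WT batch 2. *gld-3*, a Bicaudal-C homologue that counteracts FBF, had log2 fold changes of 1.60, 1.43 and 4.25 in these mutants.

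*lst-1* and *sygl-1*, which encode the FBF partners that act downstream of Notch signalling in germline stem cells, were each called in P183L and in 1 other mutant. *lst-1* rose in P37Stop by a log2 fold change of 1.06 (16.6, 20.6 and 18.98 CPM against 10.8, 7.90 and 8.83 CPM in WT batch 2). *sygl-1* rose in S441L by one of 2.28 (9.40, 10.3 and 10.3 CPM against 2.23, 2.13 and 2.00 CPM in WT batch 1), and was also higher in WT batch 2 than in WT batch 1, by one of 1.02. In P37Stop *sygl-1* had a log2 fold change of -0.01, and in S441L *lst-1* had one of 0.41, neither of them called. *nos-1* rose in S441L by 2.55, and *cpb-3*, a CPEB protein, in P37Stop by 1.96. Those called lower were *car-1* in S441L, at -0.52, and *ntl-4*, a subunit of the CCR4-NOT deadenylase, in P183L, at -0.50.

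Among 19 known PUF targets, 8 of 18 tested rose in P37Stop, and 9 of 19 in S441L and 14 of 19 in P183L, beside 12.7%, 24.2% and 40.2% of all genes called higher. None of them was called lower in P37Stop or S441L and 3 were in P183L, with median log2 fold changes of 0.97, 0.50 and 2.49. Their summed level went the other way in P37Stop, at 1162 to 1232 CPM against 1306 to 1368 CPM in WT batch 2. It was also lower in S441L (1090 to 1113 CPM) and higher in P183L (1989 to 2044 CPM) than in WT batch 1 (1187 to 1243 CPM). The targets of FBF and of the oogenic PUFs *gld-1* (1.76, 1.47 and 4.44 in P37Stop, S441L and P183L) and *glp-1* (1.60, 1.32 and 4.34) were higher in each mutant. So was *fem-3*, which promotes sperm fate, with log2 fold changes of 1.67, 2.09 and 3.17. The *puf-9* target *hbl-1* was read at 1241 to 1279 CPM in P183L against 114 to 140 CPM in WT batch 1, and had a log2 fold change of 3.23. It rose in P37Stop by 1.02 (149, 111 and 126 CPM against 55.8, 79.1 and 58.6 CPM in WT batch 2) and was not called in S441L, at 0.22. WT batch 2 was lower in *hbl-1* than WT batch 1 by a log2 fold change of -0.90 (adjusted p = 8.67e-05, edgeR test), and the P37Stop values overlapped those of WT batch 1. The kinase gene *mpk-1* (log2 fold change of -1.63) and its phosphatase gene *lip-1* (-1.57), both FBF targets in the germline and both expressed in other tissues, were lower in P183L.

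**Figure D5:**
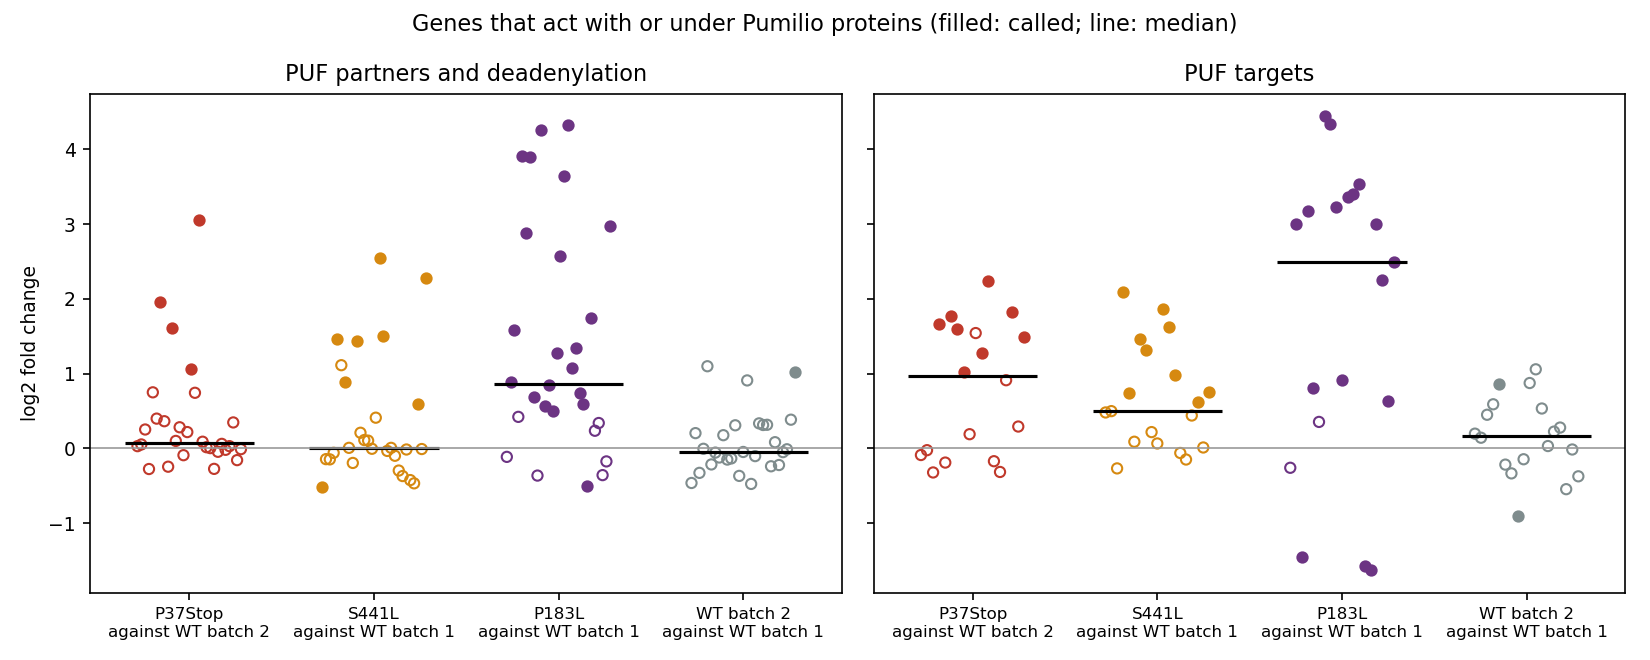
Log2 fold change of each gene of the lists of PUF partners and deadenylation factors and of PUF targets in 4 comparisons, with filled points for called genes and a line for the median. Medians of the targets are 0.97, 0.50 and 2.49 in P37Stop, S441L and P183L, and 0.17 between the WT groups.

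Markers of the oocyte and maternal programme were mostly called higher. Of 28 oocyte and maternal genes tested, 18 were higher and 0 lower in P37Stop, 22 higher and 0 lower in S441L, and 26 higher and 2 lower in P183L, with median log2 fold changes of 1.56, 1.14 and 3.33. Of all genes tested, 12.7%, 24.2% and 40.2% were called higher in these comparisons, and 5.90%, 15.8% and 40.2% lower. Between the WT groups 1 of the list was higher and 1 lower, beside 18.6% and 14.3% of all genes. Summed over the 30 genes, their level was 1231 to 1460 CPM in P37Stop against 1181 to 1250 CPM in WT batch 2, and 1337 to 1347 CPM in S441L and 2605 to 2623 CPM in P183L against 1365 to 1396 CPM in WT batch 1. Most of that sum came from *skn-1*, *mbk-2* and *lin-41*, which other tissues also express. Without these 3, a step chosen after seeing the values, it was 211, 403 and 264 CPM in P37Stop against 165, 104 and 86.3 CPM in WT batch 2, and 232 to 234.7 CPM in S441L and 1483 to 1501 CPM in P183L against 130 to 136 CPM in WT batch 1.

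The 2 maternal list genes that fell in P183L were *lin-41* (log2 fold change of -4.81) and *skn-1* (-1.11). Those that rose most there were *cpg-2*, an eggshell chondroitin proteoglycan, by 4.85 and *meg-1*, a P granule factor, by 4.57. Of 18 germ cell and P granule genes, 3 rose in P37Stop, 14 rose in S441L and 16 rose in P183L, with 0, 1 and 1 called lower, beside 12.7%, 24.2% and 40.2% of all genes called higher. In WT batch 2, 7 of these 18 were called higher than in WT batch 1, beside 18.6% of all genes. The P granule gene *pgl-1* had log2 fold changes of 0.08 in P37Stop (not called), 2.71 in S441L and 3.95 in P183L, and one of 1.80 in WT batch 2 over WT batch 1, which was called.

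Genes of another stage and of another tissue were called as well. Of the zygotic genes of the early embryo, 6 of 15 tested rose and 1 fell in P37Stop, 1 of 15 rose and 4 fell in S441L, and 14 of 18 rose and 2 fell in P183L, with median log2 fold changes of 2.11, -0.14 and 4.25. Of all genes tested, 12.7%, 24.2% and 40.2% were called higher in these comparisons, and 5.90%, 15.8% and 40.2% lower. Of a list of epidermal and cuticle genes, 7 of 17 tested rose in P37Stop, 5 of 15 in S441L and 12 of 15 in P183L, beside the same shares of all genes. The list is not one of genes specific to L1, as *rol-6* and *col-13* were at no more than 0.722 CPM in any WT library. The authors reported lower levels of L1-specific collagen genes in the mutants, which these counts do not address. Of this epidermal list, 0, 0 and 2 were called lower in P37Stop, S441L and P183L, and the medians were 0.75, 0.09 and 2.60. The S441L count includes *rol-6* (log2 fold change of 9.73), a gene that *jcIs1* carries, so that its rise need not come from the epidermal gene itself. The cuticle collagen gene *dpy-10* (log2 fold change of 4.401) and the hedgehog-related gene *wrt-10* rose most of that list in P183L. Between the WT groups 3 of 17 epidermal genes were called higher and 7 lower, beside 18.6% and 14.3% of all genes. The zygotic medians cover only genes that passed the filter on low counts. In P183L they include *tbx-37*, *hlh-27* and *tbx-35* (log2 fold changes of 4.49, 5.27 and 5.79), which were not tested in P37Stop or S441L. These genes were at no more than 0.29 CPM in WT batch 1 and passed the filter through their P183L level. Their rise there is thus no evidence, and the 14 of 18 that rose in P183L include them. The zygotic medians are therefore not ranked against those of the oocyte and maternal list. Of 32 sperm genes, 20 to 27 were at 0 in each library. Of the 3 tested in each mutant, 0, 1 and 1 were called higher and 0 lower in P37Stop, S441L and P183L. Those called were *spe-11* in S441L (log2 fold change of 5.77) and *msp-76* in P183L (2.22). Both were at no more than 0.157 CPM in WT batch 1 and passed the filter through their mutant level. Between 0 and 1 of the oocyte and maternal genes were at 0 in any library, WT included. The part of these genes in the changes of the PUF members was not tested.

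The genes whose pattern over the 15 libraries was most like that of *puf-3* (Pearson's r of log2 CPM, among 13822 genes) were *ugt-33* (0.980), *F41F3.8* (0.979), *cyk-7* (0.978), *D2005.4* (0.974) and *cht-5* (0.971). For *puf-11* they were *W05F2.3* (0.991), *T21C9.13* (0.984), *cey-3* (0.981), *F02E8.4* (0.979) and *R04D3.3* (0.978). Each was highest in P183L, as *cey-3*, a Y-box RNA-binding protein gene of the oocyte list, was at 32.1 to 33.4 CPM. The 15 points share their groups and experiments, and 80 genes exceeded 0.95 for *puf-3* and 47 for *puf-11*.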

How the data were processed

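Before deposit, the authors processed the paired-end reads with fastp (filtering), STAR (alignment) and Salmon (pseudoalignment), both to ce11, picard (duplicate removal) and htseq (counting). Their deposited values are expected counts (estimated counts) of each gene without scaling, and which route made them was not given in the sources used here. Of its values, 3.7% were not whole and were rounded. A row without a gene ID, whose 1 value was 100% of a column total, was left out. Ensembl release 115 (WBcel235) matched 46857 gene IDs and left 54 unmatched, and the pseudogenes *puf-10* and *puf-4* (at most 14 counts, not tested) were named from RefSeq coordinates on the same assembly.

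Mutants were set against the WT of their own experiment with edgeR 4.0.16 in R 4.3.3 (filterByExpr with minimum count 10, TMM, glmQLFit and glmQLFTest, Benjamini-Hochberg adjustment over all genes tested). A gene was called at adjusted p under 0.05 with a log2 change past 0.5 in either direction. Differences between alleles of different experiments were tested as contrasts in a fit of all 15 libraries. TPM used the summed exon length of each gene. CPM for correlations had a prior count of 2. The test was tried on simulated data. The members and gene lists were chosen with earlier results of these data known. Besides the members, named genes are those with the 2 highest and 2 lowest changes among the called genes of a list, the 5 genes most like *puf-3* and *puf-11*, *eff-1*, and genes named as examples after their values were seen (*pos-1*, *rol-6*, and *gld-1*, *glp-1*, *fem-3*, *hbl-1*, *nos-2*, *gld-3*, *sygl-1* and *pgl-1* in comparisons where they were not among these). Alternatives were DESeq2 1.42.0, limma 3.58.1 voom, other scalings and filters, other WT groups, summed near-identical genes, a replicate block and leaving out each replicate. All replicate pairs differed beyond sampling noise (chi-square per degree of freedom 3.28 at the least).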

Additional observations from a re-analysis of the deposited data

Results flagged for a closer look

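The effects of alleles from different experiments, each against its own WT group, differed by a test of the difference for several members. Between S441L and P37Stop (effect of S441L minus effect of P37Stop), *fbf-1* differed by 1.84 ± 0.46 and *puf-12* by -0.76 ± 0.11 on the log2 scale (SE; adjusted p = 0.00451 and 3.68e-05, edgeR quasi-likelihood test), where 40.5% of 17180 genes passed. Between P183L and P37Stop 70.4% passed. The effect was larger in P183L than in P37Stop for *puf-6* (2.70 ± 0.56), *puf-7* (1.21 ± 0.52), *fbf-1* (2.18 ± 0.46) and *puf-8* (1.19 ± 0.24), with adjusted p = 0.000407, 0.0489, 0.000497 and 0.000279 in that test. They were negative for *fbf-2* (-2.57 ± 0.27, adjusted p = 2.89e-07) and *puf-12* (-1.19 ± 0.11, adjusted p = 4.18e-08, edgeR test). With DESeq2 the *puf-7* difference did not pass (adjusted p = 0.0726) and that of *puf-9* did (0.28, adjusted p = 0.00684). For *puf-3* and *puf-11* the differences were 2.92 ± 0.41 and 2.38 ± 0.72 (SE), given with no p because these effects chose the family. In *puf-5* the difference of 1.39 ± 0.73 did not pass (adjusted p = 0.0988, edgeR test). In *fbf-2* the libraries of P37Stop and of P183L moved in opposite directions from their WT groups.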

How the results depend on the processing

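The counts of members called in S441L (9), P183L (9) and P183L against S441L (7) were the same whichever replicate was left out. In P37Stop the count of 7 ranged from 4 to 7, at 4 without P37Stop replicate 2 or without WT batch 2 replicate 2, and was 6 without P37Stop replicate 2 and WT batch 2 replicate 1 together. Between the WT groups the count of 1 became 2 with upper quartile or total count scaling, without the filter on low counts and with near-identical pairs summed, and 3 with all 15 libraries fitted or with *puf-6*, *puf-7* and *puf-10* summed, and ranged from 1 to 2 over left-out replicates. Replicate numbers did not pair the samples (correlations of same-numbered deviations from -0.11 to 0.0958). A replicate block gave 7, 9, 9, 7 and 1 members called in P37Stop, S441L, P183L, P183L against S441L and the WT groups, and turned *puf-11* between the WT groups to -0.29. The direction also turned for *puf-12* in P37Stop with total counts (0.0086, adjusted p = 0.962), for *puf-9* in P183L against S441L with upper quartile scaling (-0.13), for *puf-11* between the WT groups with limma voom (-0.38) and without WT batch 2 replicate 1 (-0.84; -0.84 to 0.66 over left-out replicates), and for *puf-6* there without that replicate (-0.44; -0.44 to 0.82). Differences of the subgroup log2 ratio moved without *puf-3* and *puf-11* to 0.14 in S441L and 2.54 in P183L, and to 2.43 in P183L against S441L with CPM in place of TPM, from 0.49, 2.81 and 2.32. Over left-out replicates they ranged from 0.71 to 1.66 (P37Stop), 0.34 to 0.67 (S441L), 2.66 to 2.99 (P183L), 2.26 to 2.38 (P183L against S441L) and -0.48 to 0.42 (WT groups). With limma voom *puf-5* lost its call in P37Stop (adjusted p = 0.0733). The cause of these moves was not tested. Several oogenic members and *fbf-1* rest on fewer than 100 counts per WT library, which limits their precision.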
